A study of Arabidopsis thaliana with 30 samples.

Results

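The 4 replicate 1 libraries of the 20 °C RNA-seq experiment, 1 from each genotype, stood apart from the 8 libraries of replicates 2 and 3. Their difference was described through 3426 genes of 19454 tested, selected on that contrast itself with genotype held in the model at an adjusted p under 0.05. Of these, 1808 were higher in replicate 1 (9.29% of the genes tested) and 1618 were lower (8.32%). Because the contrast chose the genes, its fold changes are given as a description with their standard errors and without p-values, and tests are reported only for measures that the choice did not use.

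The study asked how SERRATE (SE), a zinc finger protein of miRNA biogenesis, and HEN2, the RNA helicase of the nuclear exosome targeting complex NEXT, act on RNA levels. The 20 °C experiment held the single mutants hen2-2 and se-2, the double mutant se-2 hen2-2 and wild type (WT) with 3 libraries each, and the 22 °C experiment held hen2-2 and WT with 3 libraries each. The mutants are T-DNA insertion lines in the Col-0 background, and se-2 makes an SE protein that lacks its C-terminal end. All plants were 4 weeks old and grew on soil under 16 h of light and 8 h of darkness, and RNA from rosette leaves was depleted of ribosomal RNA before stranded libraries were made. The hour at which each replicate was collected, and whether libraries of 1 number were grown or collected together, are not given in the sources used here, so p-values measure the spread between these libraries.

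The plant circadian clock is a loop of transcriptional repressors that follow each other through the day. CCA1 and LHY, related MYB factors, peak around dawn and repress evening genes such as TOC1 through a short DNA word called the evening element, and the evening complex of ELF3, ELF4 and LUX in turn represses PRR9 and other day genes. Levels of clock transcripts, and of the photosynthesis, starch and cold genes downstream of them, therefore depend on the hour at which leaves are frozen.

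Library totals were 120624180 to 156614246 counts in replicate 1 and 47745772 to 156019097 counts in replicates 2 and 3, where only replicate 2 of WT and of hen2-2 was as deep as replicate 1. These counts were derived from coverage and are not reads. Each total was above the average number of mapped reads per library that the paper gives for this experiment. Depth here means these totals. The share of counts on chloroplast genes was 68.2 to 72.2% in replicate 1 and 50.6 to 69.6% in the others, so depth and chloroplast share moved with the contrast, and their part in single genes was not tested. When replicate 1 was set against replicate 2 in WT and hen2-2 only, where depths were alike, 2636 of 19364 genes tested were called. Of these, 1993 were among the 3426. The same libraries had helped to choose the 3426, so this overlap is in part built in and does not test the part of depth. HEN2 was called lower in hen2-2 and the double mutant, and SE in se-2 and the double mutant (edgeR, adjusted p = 0.038, 0.026, 0.024 and 0.012). Neither gene was selected in replicate 1, with log2 differences of -0.33 ± 0.15 for HEN2 and -0.19 ± 0.12 for SE (± standard error of the fit, 4 libraries against 8). The summed level of 4 leaf markers was 873 to 1420 CPM (counts relative to the library total, scaled by edgeR's TMM method) in replicate 1 and 1320 to 1950 CPM in the others. By gene, 2 of the 4 had a positive and 2 a negative log2 difference, with a median of -0.08, and 1 was selected as lower. Root and seed markers were at 0 in all 12 libraries. The 3 meristem markers STM, KNAT1 and CYCB1;1 summed to 0.208 to 0.442 CPM in replicate 1 and 0.83 to 2.08 CPM in the others, and 4 flower markers to 0.193 to 0.36 CPM and 0 to 0.214 CPM. In bulk leaf RNA, fewer cells of a type and less RNA per cell cannot be told apart.

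Among the chosen genes the replicate 1 difference was often large and mostly had the same direction in each genotype. At least 2-fold changes were found for 651 of the higher and 675 of the lower genes, at least 4-fold changes for 177 and 208, and at least 16-fold changes for 37 and 58. The median log2 difference was 0.80 among higher genes and -0.88 among lower genes, against 0.02 over all genes tested. Replicate 1 was above the mean of the 2 others in all 4 genotypes for 1764 of the 1808 higher genes. It was below that mean in all 4 for 1588 of the 1618 lower genes. Choosing genes on this contrast favours such agreement, so these counts describe the chosen genes and do not test it. The 4 replicate 1 libraries lay above all 8 others for 887 higher genes and below them for 765 lower genes, where 9.44% of all genes tested were separated in this way. The filter on low counts asked for 0.112 CPM (10 counts in the median library) in at least 3 libraries. Among the higher genes, 33 had that level in fewer than 3 of the 8 other libraries and so passed through replicate 1, and 46 lower genes had it in none of the 4 replicate 1 libraries. Just inside the threshold stood AT3G55410, at 39.1 to 41.5 CPM in replicate 1 and 29.6 to 36.4 CPM in the others, and ADH1, at 1.62 to 5.53 CPM and 0.841 to 2.11 CPM. Just outside stood QUL2, at 4.42 to 6.50 CPM in replicate 1 and 3.02 to 6.92 CPM in the others, and AT1G13730, at 2.15 to 3.67 CPM and 3.67 to 5.99 CPM.

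Most morning genes of the clock, 13 of 16, were lower in replicate 1. LHY had 0.15, 0.39, 0.225 and 0.347 CPM in replicate 1 of hen2-2, se-2, the double mutant and WT, against a lowest value of 8.8, a median of 12.7 and a highest value of 14.9 CPM in replicates 2 and 3. Its partner CCA1 had 1.06, 0.57, 0.241 and 0.377 CPM in the same 4 libraries, against 12.3, 15.8 and 27.7 CPM. All 4 replicate 1 libraries were far below the lowest of the others for both genes, with log2 differences of -5.46 ± 0.25 for LHY and -5.15 ± 0.27 for CCA1. LNK3, of a family of coactivators that act with RVE8, showed the largest difference of the list (-5.54 ± 0.24), with 0.33, 0.202, 0.249 and 0.555 CPM in replicate 1 and 11.4, 15.7 and 17.8 CPM in the others. PRR9, the first of the pseudo-response regulator repressors to be expressed in the day, had 0.225, 0.426, 0.153 and 0.0793 CPM, against 5.47, 7.17 and 11 CPM. RVE8, an activator of evening genes, had 0.0599, 0.116, 0.129 and 0.188 CPM, against 2.48, 2.91 and 4.54 CPM. The groups were separated for each of these genes.

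Among the other morning genes 1 was higher in replicate 1, and the median log2 difference of the list was -3.34. LNK4 (-3.73 ± 0.16), RVE1 (-3.66 ± 0.33), RVE7 (-3.34 ± 0.22), LNK2 (-2.94 ± 0.20) and LNK1 (-2.51 ± 0.11) were also lower without overlap of the groups. Smaller differences were found for PRR7 (-1.24 ± 0.13), RVE4 (-1.03 ± 0.11) and RVE5 (-0.70 ± 0.20), and RVE5 overlapped between the groups. RVE6 had -0.43 ± 0.25 and was not selected, nor was RVE3, a gene at 0 in 3 of the 4 replicate 1 libraries and at most 0.275 CPM in the others. RVE2, a MYB factor of the same family as CCA1 and also known as CIR1, ran the other way. It had 4.72, 3.23, 3.87 and 5.61 CPM in replicate 1, against 0, 0.595 and 0.957 CPM in the others, a log2 difference of 3.47 ± 0.55.

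Of 12 evening genes, 7 were higher in the same 4 libraries and none was lower. TOC1, the pseudo-response regulator that represses CCA1 and LHY, had 32.4, 33, 25.9 and 30.3 CPM in replicate 1 of hen2-2, se-2, the double mutant and WT, against 3.1, 4.26 and 6.72 CPM (lowest, median, highest) in replicates 2 and 3. All 3 parts of the evening complex were higher. ELF4 had 8.35, 6.74, 6.96 and 8.25 CPM, against 0.17, 0.482 and 1.45 CPM. LUX had 8.89, 6.15, 9.33 and 10.7 CPM, against 0.637, 1.29 and 3.08 CPM, and ELF3 had 14.8, 11.7, 10.4 and 11.5 CPM, against 1.85, 3.53 and 5.55 CPM. BOA, a close relative of LUX, was nearly silent in the other libraries. It had 4.29, 3.12, 2.85 and 3.3 CPM in replicate 1, against 0, 0.00774 and 0.183 CPM.

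The log2 differences of the evening genes were 6.09 ± 0.64 for BOA, 4.79 ± 0.54 for PRR3, 4.04 ± 0.31 for ELF4, 2.79 ± 0.13 for TOC1, 2.68 ± 0.24 for LUX, 2.45 ± 0.53 for FKF1 and 1.71 ± 0.17 for ELF3. The list's median was 2.08. FKF1, a blue light receptor of the flowering pathway, overlapped between the groups through replicate 2 of WT at 5.76 CPM. GI had 18, 14.6, 12.8 and 16.1 CPM in replicate 1, against 7.65, 12.3 and 18.9 CPM, and was not selected (0.34 ± 0.18). The protein of ZTL, a photoreceptor that targets TOC1 for degradation, is known to cycle while its transcript is steady, and ZTL was not selected (-0.23 ± 0.13), nor were LKP2 (0.00 ± 0.12), CHE (0.23 ± 0.14) and PRR5 (0.00 ± 0.42).

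**Figure D1:**
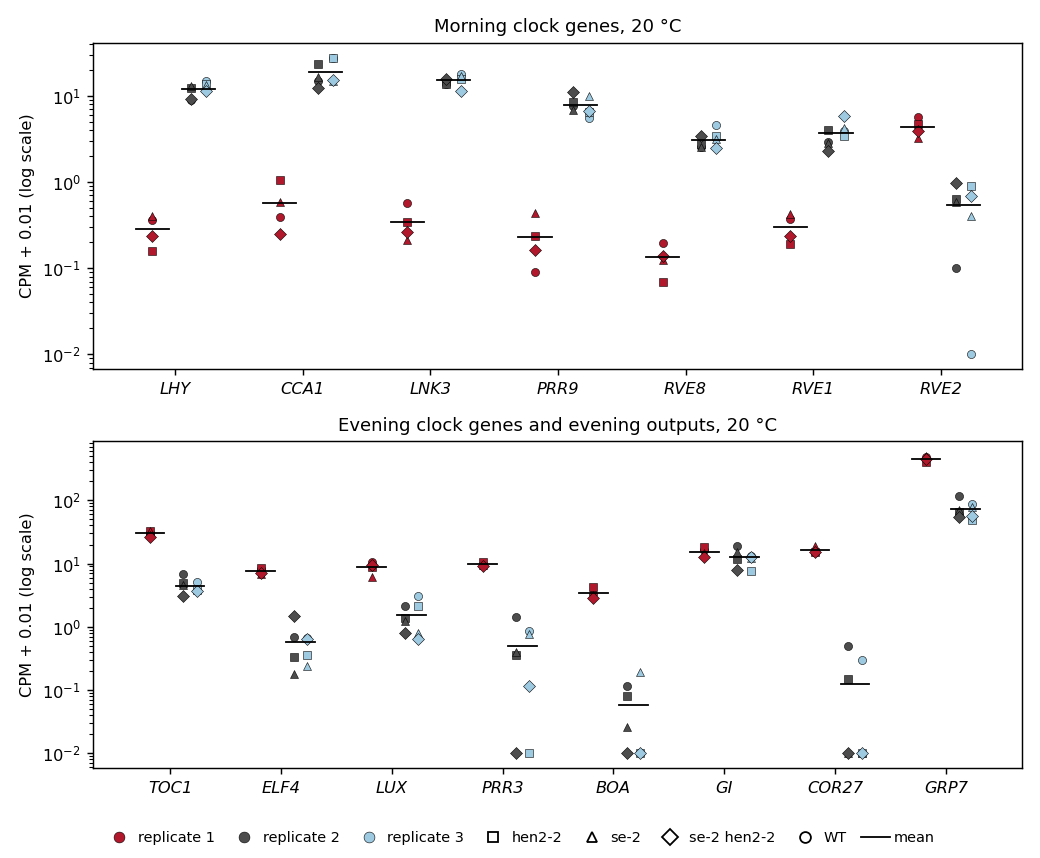
CPM plus 0.01 on a log axis for 7 morning clock genes (top) and for 6 evening clock genes and 2 evening outputs (bottom) in the 12 libraries at 20 °C, with replicate 1 left of replicates 2 and 3. Shapes mark genotypes and black lines mark the mean of each set. LHY had 0.15 to 0.39 CPM in replicate 1 and at least 8.8 CPM in the others, while TOC1 had at least 25.9 CPM in replicate 1 and at most 6.72 CPM in the others.

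Promoters of 4 genes from both ends of this pattern are shown because evening genes are bound by CCA1 and LHY at the evening element, and because morning genes often carry a G-box. Each is 250 bases before and 50 bases after the annotated gene start, 5′ to 3′ along the gene, from RefSeq's TAIR10.1 assembly. Capitals mark the evening element (AAAATATCT) and the G-box (CACGTG), searched on both strands, and a CCA1-binding site (AAAAATCT) would also be in capitals. None of these words contains another. TOC1 (AT5G61380) is at chr5:24674713-24675012 on the plus strand, GRP7 (AT2G21660) at chr2:9266508-9266807 on the minus strand, LHY (AT1G01060) at chr1:37822-38121 on the minus strand and CCA1 (AT2G46830) at chr2:19245341-19245640 on the plus strand.
TOC1: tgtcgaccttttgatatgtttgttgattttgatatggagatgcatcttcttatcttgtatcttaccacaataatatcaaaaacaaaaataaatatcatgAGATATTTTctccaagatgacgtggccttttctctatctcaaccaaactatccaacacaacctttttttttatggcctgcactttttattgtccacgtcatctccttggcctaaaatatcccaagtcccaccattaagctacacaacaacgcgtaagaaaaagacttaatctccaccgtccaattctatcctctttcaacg
GRP7: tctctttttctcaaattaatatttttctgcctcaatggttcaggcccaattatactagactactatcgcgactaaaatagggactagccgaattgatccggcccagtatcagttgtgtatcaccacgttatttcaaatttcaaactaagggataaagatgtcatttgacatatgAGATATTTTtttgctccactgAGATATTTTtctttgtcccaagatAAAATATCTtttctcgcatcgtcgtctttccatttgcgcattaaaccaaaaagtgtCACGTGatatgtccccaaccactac
LHY: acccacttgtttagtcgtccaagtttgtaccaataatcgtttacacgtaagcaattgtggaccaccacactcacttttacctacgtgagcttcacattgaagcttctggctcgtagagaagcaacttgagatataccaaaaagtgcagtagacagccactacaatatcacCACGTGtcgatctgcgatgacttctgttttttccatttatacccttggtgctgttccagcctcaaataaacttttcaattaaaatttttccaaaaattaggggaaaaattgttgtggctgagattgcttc
CCA1: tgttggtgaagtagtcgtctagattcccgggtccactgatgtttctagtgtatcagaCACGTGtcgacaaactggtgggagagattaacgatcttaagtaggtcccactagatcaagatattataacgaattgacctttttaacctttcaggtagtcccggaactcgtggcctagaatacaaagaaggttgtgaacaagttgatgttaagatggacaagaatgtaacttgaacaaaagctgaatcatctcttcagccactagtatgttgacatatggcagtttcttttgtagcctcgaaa

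TOC1 carried 1 evening element in this window and GRP7 carried 3 with 1 G-box, while LHY and CCA1 each carried 1 G-box and no evening element. The evening element stood in 5 of the 12 evening promoters (41.7%) and in 2 of the 16 morning promoters (12.5%). The G-box stood in 12 of the 16 morning promoters (75.0%) and in 2 of the 12 evening promoters. Among all genes tested, 3.06% of promoters held the evening element and 8.73% held the G-box. The evening element stood in 6.02% of the promoters of all higher genes and in 11.3% of those that were at least 4-fold higher. It stood in 3.32% of the promoters of all lower genes, and in 5.77% of those that were at least 4-fold lower. The TBX (AAACCCT), a word of growth-related promoters, stood in 5.74% of higher, 13.3% of lower and 9.79% of all promoters tested, but in 3.95% of those at least 4-fold higher and 2.88% of those at least 4-fold lower. The PBX (ATGGGCC) stood in 7.09% of higher, 11.4% of lower and 10.5% of all promoters tested, and in 3.95% and 3.37% of those at least 4-fold higher and lower. The CCA1-binding site stood in 7.88% of higher, 8.46% of lower and 8.05% of all promoters tested, and in 7.91% and 5.29% of the 4-fold sets. The G-box stood in 11.2% of higher and 10.2% of lower promoters, and in 17.5% and 13.5% of the 4-fold sets. In the annotation as a whole, 2.49% of 37897 promoters held the evening element and 6.46% the G-box. A match is a description of letters in this window and was not tested as a site.

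Outputs close to the clock differed in both directions. COR27, which was at 0 in the median of the other libraries, had the largest difference among genes with at least 1 CPM on average and separated groups. It had 15.5, 18.7, 15.4 and 15 CPM in replicate 1 of hen2-2, se-2, the double mutant and WT, against 0, 0 and 0.485 CPM in the others (7.35 ± 0.58). COR27 and its relative COR28 are evening-phased repressors of clock genes, and COR28 was higher as well (3.90 ± 0.50). GRP7, a glycine-rich RNA-binding protein whose transcript peaks in the evening, had 397, 497, 453 and 485 CPM, against 48.7, 66.9 and 118 CPM. Its log2 difference was 2.72 ± 0.12.

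Of 22 output genes tested, 6 were higher and 14 were lower, with a median of -1.65. The lower genes included COL2, a relative of the flowering regulator CONSTANS, at 0.217, 0.26, 0.193 and 0.496 CPM in replicate 1, against 5.99, 6.44 and 11.8 CPM (-4.75 ± 0.25). CDF3 (-4.19 ± 0.18) and CDF1 (-2.78 ± 0.21), DOF repressors of flowering genes, and the B-box genes BBX25 (-4.25 ± 0.21) and BBX19 (-3.55 ± 0.36) were lower too. The growth regulators PIF4 (-1.19 ± 0.15) and PIF5 (-1.71 ± 0.20) were lower without overlap. CAT2 and CAT3, catalases that are known to peak in the morning and in the evening, differed in opposite directions. CAT2 had 9.15 to 31.8 CPM in replicate 1 and 49.6 to 78.2 CPM in the others, and CAT3 had 228 to 382 CPM in replicate 1 and 127 to 213 CPM in the others.

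The 8 genes with the largest differences in each direction, among those with at least 1 CPM on average and separated groups, held clock genes and others. On the higher side COR27, BOA, PRR3 and the jasmonate gene JAZ7 were joined by AT5G28237 (5.62 ± 0.77), AT1G50040 (5.31 ± 0.79), AT1G07050 (5.06 ± 0.40) and AT2G23910 (4.34 ± 0.42). AT1G07050 had 22.2, 7.05, 15.3 and 18 CPM in replicate 1, against 0, 0.39 and 0.842 CPM. On the lower side LNK3, LHY, PRR9 and CCA1 were joined by CIPK20 (-5.82 ± 0.31), AT3G09450 (-5.50 ± 0.73), PYK10 (-4.92 ± 0.57) and BBX28 (-4.78 ± 0.24). CIPK20, a protein kinase of the calcium sensor network, had 0.277, 0.188, 0.129 and 0.536 CPM, against 8.31, 14.5 and 24.6 CPM, the largest difference on this side. PYK10, a beta-glucosidase of endoplasmic reticulum bodies, had 0.0599, 0.296, 0.129 and 0.684 CPM, against 2.94, 7.75 and 20 CPM.

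The 22 °C experiment gave libraries that the choice of genes had not used. Over the 3 replicate numbers, treated alike in a test with 2 degrees of freedom, 3999 of 19506 genes were called there (20.5%), 2375 with replicate 3 above the mean of replicates 1 and 2 (12.2%) and 1624 with replicate 3 below it (8.33%). Of the 3426 genes, 3372 were tested at 22 °C and 1506 were called (44.7%), against 15.5% of the 16134 other genes. Whether the chosen genes are called more easily in any contrast was not tested. The split of replicate 3 from 1 and 2 had been picked with results of these data known, so its direction is a description. Genes lower in replicate 1 at 20 °C were called and higher in replicate 3 at 22 °C in 612 of 1575 cases (38.9%) and called and lower in 109 (6.92%). Genes higher in replicate 1 went both ways, 369 of 1797 (20.5%) called and lower and 416 (23.1%) called and higher. In sign alone, 1965 of 3372 (58.3%) were opposite, against 10220 of the 18623 genes tested in both experiments. Between replicates 2 and 1 at 22 °C edgeR gave 1758 of the 19506 genes an unadjusted p under 0.05. Of these, 563 were among the 3372 (16.7% of those). After adjustment edgeR called 0 genes, and DESeq2 called 115. That 0 became 1231 when WT replicate 3 was left out and 1064 when hen2-2 replicate 3 was.

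The 22 °C counts moved with single libraries. Leaving out hen2-2 replicate 1 gave 1649 genes in place of 3999, and 827 in place of 1506. The 4 directions then held 331 (lower, then higher), 52 (lower in both), 208 (higher, then lower) and 236 (higher in both). Leaving out WT replicate 1 gave 1973 and 942 genes, with 391, 62, 243 and 246 in the directions. The 3999 became 2159 without WT replicate 2, with 57 genes lower in both and 239 higher in both. With hen2-2 replicate 2 left out it became 2266, with 67 genes lower in both. Leaving out replicate 3 of a genotype gave more calls. There were 601 genes higher and then lower when that library of WT was dropped, and 743 higher in both and 206 lower in both when that of hen2-2 was. Leaf markers also differed at 22 °C, with a sum of 2530 and 2630 CPM in replicate 3, against 861 to 1270 CPM in the others. Of the 4 markers, 3 were called with replicate 3 higher and 1 with replicate 3 lower. Chloroplast genes took 77.6 to 81.5% of the counts in all 6 libraries. The part of leaf markers and chloroplast share in these counts was not tested.

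At 22 °C the clock stood the other way round. LHY had 8.01 and 7.01 CPM in replicate 3 of hen2-2 and WT, against 0.507 and 0.671 CPM in replicates 1 and 2 of hen2-2 and 0.962 and 1.33 CPM in those of WT. Its log2 difference was 3.20 ± 0.23 and the replicates differed (edgeR, adjusted p = 0.0014). Here and below, each p-value at 22 °C is from the test over the 3 replicate numbers. The log2 difference beside it, replicate 3 over replicates 1 and 2, is a description. CCA1 had 18.1 and 17.7 CPM in replicate 3, against 2.07, 2.72, 3.58 and 4.69 CPM (2.53 ± 0.17, edgeR, adjusted p = 0.0012). Replicate 3 was above both other replicates in each genotype for these genes. TOC1 had 4.21 and 7.35 CPM in replicate 3 of hen2-2 and WT, against 31.6 and 30.3 CPM in the other hen2-2 libraries and 27.3 and 21.2 CPM in the other WT libraries (-2.26 ± 0.27, edgeR, adjusted p = 0.0054). COR27 had 0.12 and 0.344 CPM, against 13.5, 13, 11.2 and 7.81 CPM (-5.75 ± 0.38, edgeR, adjusted p = 0.0011). In each of these genes replicate 3 at 22 °C lay on the side of replicates 2 and 3 at 20 °C, and replicates 1 and 2 at 22 °C lay on the side of replicate 1 at 20 °C.

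Across the lists, 10 of 15 morning genes were called with replicate 3 higher and 1, RVE2, with replicate 3 lower (-1.72 ± 0.21, edgeR, adjusted p = 0.0017). RVE2 was thus the gene of the morning list that ran against it in both experiments. LNK4 (3.35 ± 0.16), RVE1 (3.23 ± 0.19), RVE8 (2.51 ± 0.32), LNK2 (2.31 ± 0.08) and LNK3 (2.25 ± 0.26) had large differences, all called. PRR9, among the lowest genes in replicate 1 at 20 °C, had 5.01 and 3.11 CPM in replicate 3, against 1.56, 1.79, 2.38 and 3.42 CPM, and was not called at 22 °C (edgeR, adjusted p = 0.13), nor was LNK1 (edgeR, adjusted p = 0.058), and both were called by DESeq2. Of the 12 evening genes, 8 were called with replicate 3 lower. They were FKF1 (-5.62 ± 0.36), ELF4 (-5.35 ± 0.23), PRR3 (-5.18 ± 0.22), BOA (-3.92 ± 0.31), LUX (-2.76 ± 0.23), TOC1, ELF3 (-2.01 ± 0.16) and GI (-1.78 ± 0.13). GI was not selected at 20 °C, yet at 22 °C it had 9.41 and 13.7 CPM in replicate 3 and 35.3 to 41 CPM in the others (edgeR, adjusted p = 0.0014). CHE was called with replicate 3 higher (0.84 ± 0.14, edgeR, adjusted p = 0.014). The median of the morning list was 0.92 and that of the evening list -2.13, against -0.01 over all genes, and without WT replicate 3 the morning median became 1.58.

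**Figure D2:**
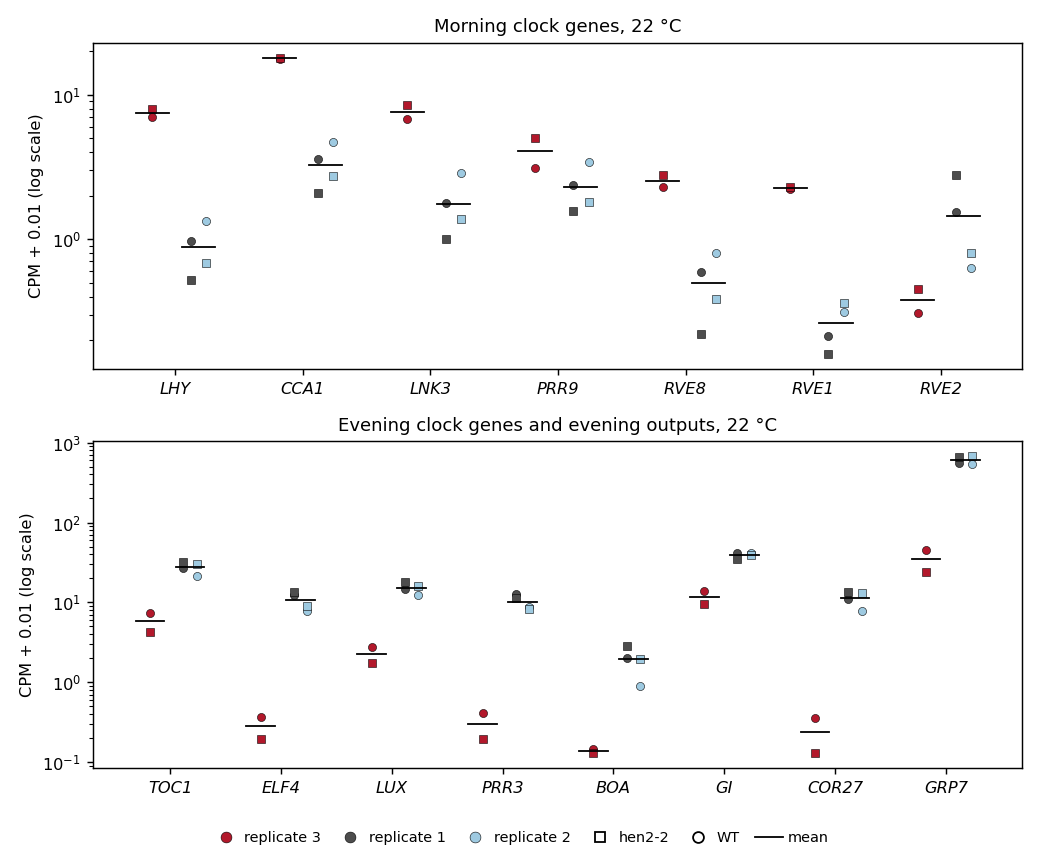
CPM plus 0.01 on a log axis for the same morning (top) and evening (bottom) genes in the 6 libraries at 22 °C, with replicate 3 left of replicates 1 and 2. Squares are hen2-2, circles are WT and black lines are means. LHY had 7.01 and 8.01 CPM in replicate 3 and at most 1.33 CPM in the others, and GRP7 had 23.7 and 45.6 CPM in replicate 3 and at least 536 CPM in the others.

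Of 19 light-harvesting genes, 12 were lower in replicate 1 and none was higher, with a median of -0.81. LHCB2.2, a light-harvesting protein of photosystem II, had 73.4, 42.3, 36.1 and 65.6 CPM in replicate 1 of hen2-2, se-2, the double mutant and WT, against 281, 367 and 416 CPM in the others (-2.75 ± 0.11). At 22 °C, 13 of the 19 were called and all 13 had replicate 3 higher, with a median of 0.82, and LHCB2.2 had 395 and 393 CPM in replicate 3, against 96.4, 183, 88.4 and 153 CPM (1.66 ± 0.10, edgeR, adjusted p = 0.00087). The largest difference of the list belonged to ELIP2, an early light-induced protein at 0, 1.93, 0.0321 and 0.149 CPM in replicate 1, against 0.459, 1.05 and 3.92 CPM (-2.82 ± 0.68). These groups overlapped through se-2. Of 12 chlorophyll synthesis genes, 6 were lower and 1, PORC, was higher (0.31 ± 0.09). GUN4, a cofactor of magnesium chelatase, had 2.71, 2.81, 1.17 and 3.33 CPM in replicate 1, against 7.79, 12.7 and 15 CPM (-2.30 ± 0.25), and CAO, which makes chlorophyll b, had -1.96 ± 0.15. All 12 were called with replicate 3 higher at 22 °C, with a median of 1.31. Homologous LHCB genes share sequence, and how the counting divided their reads was not tested.

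Of 26 genes of starch synthesis and breakdown, 14 were higher in replicate 1, 3 were lower and 9 were not selected, with a median of 0.74. PWD is a phosphoglucan water dikinase that phosphorylates starch. It had 101, 84.6, 65.1 and 108 CPM in replicate 1, against 16.6, 21.5 and 34.1 CPM (1.98 ± 0.12). At 22 °C it had 17.3 and 24.4 CPM in replicate 3, against 83, 76.5, 96.1 and 82.7 CPM (-2.03 ± 0.12, edgeR, adjusted p = 0.00094). SEX1 (1.64 ± 0.13), SBE2.1 (1.64 ± 0.11), DPE1 (1.3 ± 0.13), PHS2 (1.29 ± 0.13) and AMY3 (1.07 ± 0.10) were also higher in replicate 1 without overlap. GBSS1, the starch synthase that makes amylose, was lower. It had 1.52, 2.92, 13.7 and 1.6 CPM, against 13.3, 20.3 and 80.9 CPM (-3.05 ± 0.31), and the groups overlapped through se-2 hen2-2. At 22 °C, 13 starch genes were called with replicate 3 lower and 6 with replicate 3 higher, among them GBSS1 (1.46 ± 0.22, edgeR, adjusted p = 0.011).

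Cold and abscisic acid genes gave a mixed list. COR15B, a chloroplast protein that protects membranes in the cold, had 94.3, 60.3, 62.5 and 70.5 CPM in replicate 1, against 4.83, 10.1 and 18 CPM (2.94 ± 0.21). At 22 °C it had 3.83 and 10.1 CPM in replicate 3, against 35.3, 42.9, 42.2 and 40.4 CPM (-2.64 ± 0.31, edgeR, adjusted p = 0.0051). CBF3, a transcription factor upstream of the COR genes, was lower in both. It had 0.247, 0.209, 0.121 and 0.317 CPM in replicate 1, against 1.47, 3.77 and 4.89 CPM (-3.83 ± 0.34), and 0.239 and 0.15 CPM in replicate 3 at 22 °C, against 1.4, 1.52, 2.17 and 3.13 CPM (-3.21 ± 0.33, edgeR, adjusted p = 0.0033). CBF3 was thus a gene whose direction did not turn round between the experiments. Of 20 genes, 9 were higher and 2, CBF2 and CBF3, were lower at 20 °C, with a median of 0.59, and at 22 °C 13 were called with replicate 3 lower and 1 with replicate 3 higher, with a median of -1.0.

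**Figure D3:**
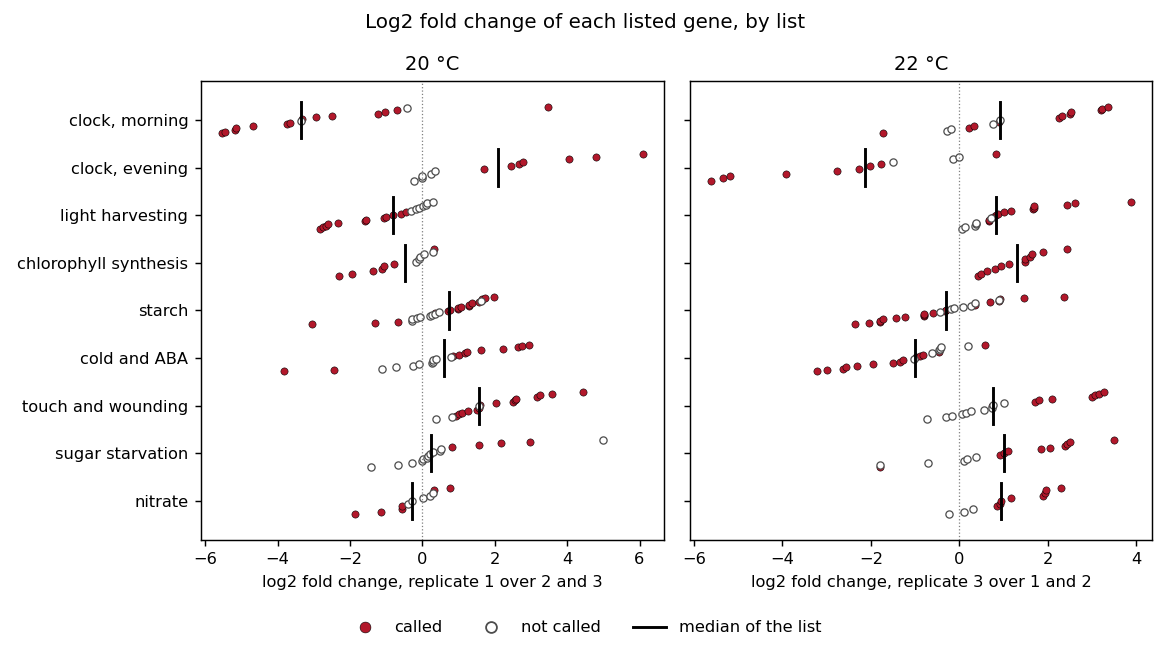
Log2 difference of each gene of 9 lists, replicate 1 over replicates 2 and 3 at 20 °C (left) and replicate 3 over replicates 1 and 2 at 22 °C (right). Red points are genes selected (20 °C) or called over the replicate numbers (22 °C), open points are the rest, and black bars are list medians. The morning list had medians of -3.34 at 20 °C and 0.92 at 22 °C and the evening list 2.08 and -2.13, while touch and wounding genes had 1.57 and 0.75.

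Of 18 touch and wounding genes, 15 were higher in replicate 1 at 20 °C and none was lower, with a median of 1.57. At 22 °C 8 of the 18 were called, all with replicate 3 higher, and the median was 0.75, with 3 genes of opposite sign in the experiments. JAZ7, a repressor of jasmonate signalling that is itself induced by jasmonate, had 9.56, 6.23, 1.83 and 4.41 CPM in replicate 1 of hen2-2, se-2, the double mutant and WT, against 0, 0.253 and 0.631 CPM in the others (4.43 ± 0.60). At 22 °C it had 6.39 and 5.24 CPM in replicate 3, against 1.43 and 2.57 CPM in the other hen2-2 libraries and 0.0906 and 0.182 CPM in the other WT libraries (3.0 ± 0.60, edgeR, adjusted p = 0.032). JAZ10, of the same family, had 3.92, 4.99, 2.56 and 2.88 CPM in replicate 1, against 0, 0.216 and 2.03 CPM (3.59 ± 0.88), and 6.64 and 8.22 CPM in replicate 3 at 22 °C, against 0.835, 1.37, 0.408 and 0.62 CPM (3.27 ± 0.27, edgeR, adjusted p = 0.0019). Both genes were thus highest in replicate 1 at 20 °C and in replicate 3 at 22 °C, the replicates that the clock genes placed on opposite sides. LOX3 and OPR3, enzymes of jasmonate synthesis, had 3.16 ± 0.36 and 2.57 ± 0.25 at 20 °C and 2.1 ± 0.30 and 1.72 ± 0.25 at 22 °C (edgeR, adjusted p = 0.0093 and 0.0096). TCH4, a cell wall enzyme induced by touch, had 2.49 ± 0.29 and 3.16 ± 0.42 (edgeR, adjusted p = 0.0075).

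The 20 °C median of the touch and wounding list was 2.26 against replicate 3 only. Genes outside the lists with the same direction in both, named after their values were seen, were CYP94C1, an enzyme that inactivates jasmonate (4.21 ± 0.33 at 20 °C and 4.16 ± 0.48 at 22 °C), PHI-1 (3.93 ± 0.41 and 4.03 ± 0.39), EXO (3.58 ± 0.24 and 3.20 ± 0.30) and WRKY18 (3.78 ± 0.30 and 2.60 ± 0.24). AT3G22275 (JAZ13), another gene of the JAZ family that was singled out after its values were seen, had 0.667, 1.57, 0.949 and 0.397 CPM in replicate 1 and 0 in all 8 others. Against a floor of 3 counts per library it was at least 20-fold higher in replicate 1. It passed the filter on low counts only through replicate 1, so this bound is a description of a gene picked for its values. Among the 3426 genes, of those called at 22 °C and at least 2-fold different in both experiments, 143 were higher in both, 107 were higher at 20 °C and lower at 22 °C, 157 were lower and then higher, and 20 were lower in both.

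**Figure D4:**
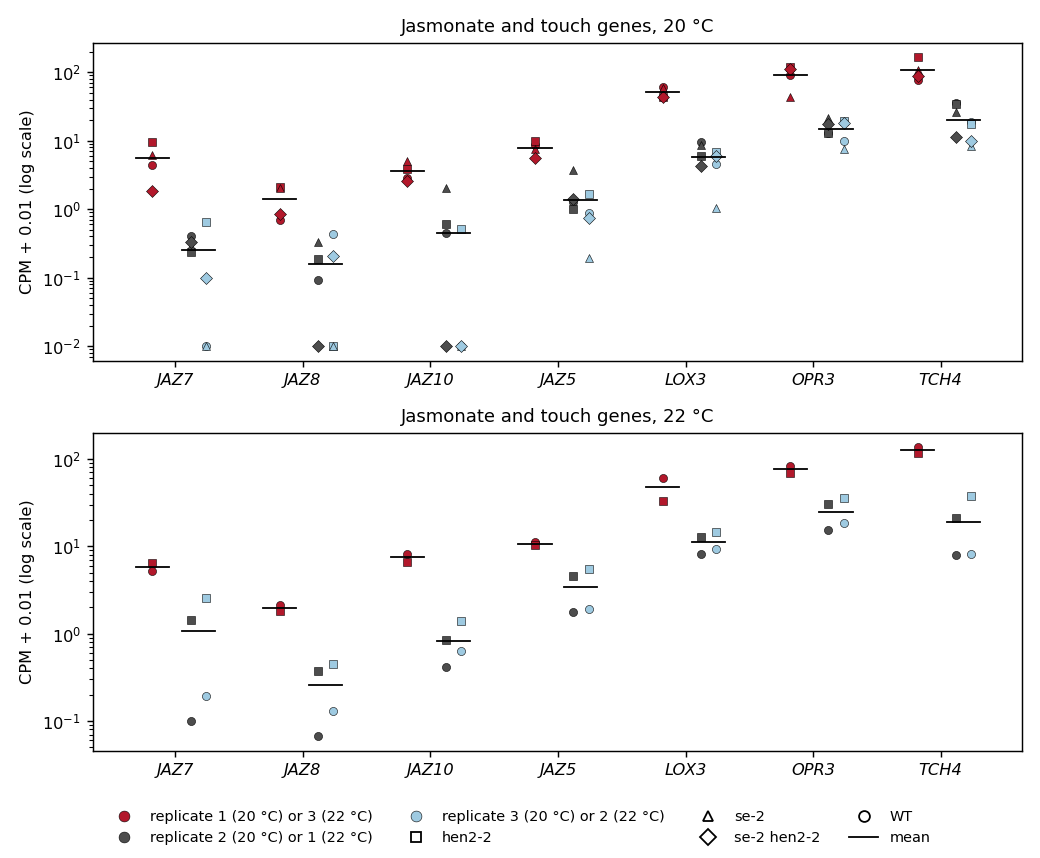
CPM plus 0.01 on a log axis for 6 jasmonate genes and the touch gene TCH4 at 20 °C (top, replicate 1 left of replicates 2 and 3) and at 22 °C (bottom, replicate 3 left of replicates 1 and 2). Shapes mark genotypes and black lines mark means. JAZ7 had 1.83 to 9.56 CPM in replicate 1 at 20 °C and at most 0.631 CPM in the others, and 5.24 and 6.39 CPM in replicate 3 at 22 °C and at most 2.57 CPM in the others.

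Other lists gave smaller or uneven differences. Of 16 genes of sugar starvation, 4 were higher at 20 °C and none was lower, and at 22 °C 9 were called with replicate 3 higher and 1 with replicate 3 lower. BT2, a scaffold protein repressed by sugar, had 119, 84, 69.7 and 74.5 CPM in replicate 1, against 4.52, 10.3 and 20.4 CPM (2.98 ± 0.20). At 22 °C it followed the genotypes as well, with 18.1 and 6.23 CPM in replicate 3 of hen2-2 and WT, against 6.39 and 8.85 CPM in the other hen2-2 libraries and 0.374 and 0.363 CPM in the other WT libraries (2.38 ± 0.51, edgeR, adjusted p = 0.041, not called by DESeq2). DIN2 had 5.0 ± 2.0 and was not selected. Of 11 nitrate genes, 2 were higher and 4 lower, among them the nitrate reductase NIA1 (-1.86 ± 0.27) and the repressor LBD37 (-1.15 ± 0.35), and 8 were called with replicate 3 higher at 22 °C. Of 11 flavonoid genes, 4 were lower, but LDOX, an anthocyanin enzyme, had 67.3 CPM in replicate 1 of se-2 hen2-2 and 0.127, 0.772 and 0.0793 CPM in those of hen2-2, se-2 and WT, and its difference over the genotypes was -2.02 ± 0.62. TT8 (-2.17 ± 1.26) was not selected.

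Among 8 heat shock genes, DREB2A was higher (1.49 ± 0.39), ROF1 was lower (-0.35 ± 0.11) and HSP90.1 was not selected (0.64 ± 0.35). Of 7 senescence genes, NYC1, which starts chlorophyll b breakdown, was higher (1.63 ± 0.16), WRKY53 was higher as well, and NAP (-2.04 ± 0.40) and SGR1 were lower. Of 7 targets of PIF factors, ATHB2 alone was selected, and XTH15 (4.09 ± 1.49) and YUC8 (-2.55 ± 1.39) were not. KNAT1, a meristem gene, was at 0 in all 4 replicate 1 libraries and at most 0.963 CPM in the others. Against the floor of 3 counts per library it was at least 17-fold lower in replicate 1, although the groups overlapped because the lowest of the other libraries was at 0 too. KNAT1 passed the filter on low counts only through those other libraries.

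Of 216 small nucleolar RNA genes tested, 66 were lower in replicate 1, none was higher and 150 were not selected, where 8.32% of all genes were lower. Their summed level was 2000, 1380, 2320 and 1530 CPM in replicate 1 of hen2-2, se-2, the double mutant and WT. In replicates 2 and 3 it was 2220 and 3010 CPM in hen2-2, 2270 and 2200 CPM in se-2, 3610 and 3100 CPM in se-2 hen2-2, and 1510 and 2110 CPM in WT. The deep libraries among these, replicate 2 of WT and of hen2-2, were closer to replicate 1 of their genotype than replicate 3 was, so the sums moved with depth, whose part was not tested. Of 81 miRNA genes, 14 were lower and 2 were higher (median -0.62). Of 133 chloroplast genes, 29 were higher and 14 lower, and of 98 mitochondrial genes, 2 were higher and 8 lower. Over all genes tested 9.29% were higher and 8.32% lower, and the mitochondrial count of lower genes was near that share.

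Replicates 2 and 3 at 20 °C were set against each other to see how far the 8 libraries differed among themselves. edgeR called 1 gene, PR1, a pathogenesis-related gene that is no member of the 3426, with 4.29, 18, 28.8 and 6.99 CPM in replicate 2 of hen2-2, se-2, the double mutant and WT, against 1.53, 3.81, 4.69 and 2.3 CPM in replicate 3 (1.99 ± 0.22, edgeR, adjusted p = 0.018). At an unadjusted p under 0.05 there were 1551 genes (7.97%), 428 of them among the 3426 (12.5% of those), and DESeq2 called 153 genes. The choice in these libraries depended on the spread between replicates 2 and 3, so the count of 428 is no independent test. PR1's call was lost when replicate 2 of WT or of hen2-2 was left out, and 4 genes were called without replicate 2 or replicate 3 of se-2. Whether the replicate 1 difference had the same size in each genotype was tested as an interaction. edgeR called 4 genes, with 437 at an unadjusted p under 0.05 (2.25%). None of the 4 was among the 3426, and 172 of the 3426 (5.02%) had an unadjusted p under 0.05. The 3426 were chosen in a model without the interaction, which favours genes that differ alike across genotypes. Their counts therefore cannot show whether the difference had the same size in each genotype. In each of the 4 genes 1 replicate 1 library was at or near 0. AT1G15890 and SEC15B were at 0 in hen2-2, AIR12 was at 0.338 CPM in se-2 hen2-2 and RALF23 at 1.45 CPM in se-2. DESeq2 called 65 genes and edgeR without the filter called 179. The 4 became 2 without WT replicate 2 or hen2-2 replicate 1, and leaving out se-2 hen2-2 replicate 3 gave 9. Leaving out replicates 3 and 1 of WT in turn gave 7 and 6.

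Comparisons between genotypes had larger errors where the replicate number was not in the model. With genotype alone in the model, 6, 6 and 66 of the 3426 genes were called in hen2-2, se-2 and the double mutant against WT (0.308%, 0.324% and 2.38% of all genes tested were called). These counts depended on single libraries, and without WT replicate 2 they were 2, 2 and 23. The 66 also became 25 and 36 without replicates 2 and 3 of se-2 hen2-2, and 38 and 37 without replicates 1 and 3 of WT. With the replicate number as a block the counts were 55, 172 and 590 (0.92%, 2.04% and 8.04% of all genes). The median standard error of the log2 difference for se-2 hen2-2 against WT was 0.21 with the block and 0.41 without it among the 3426 genes, and 0.32 and 0.35 among the other genes. The 3426 were chosen for a replicate 1 difference that was large against the remaining spread in these libraries. Their counts with genotype alone, and their smaller errors and higher counts with the block, thus follow in part from the choice. For LHY the standard error was 0.25 with the block and 1.56 without it. No clock gene of the 28 was called in any mutant with genotype alone. With the block, RVE4 alone was called, in se-2 hen2-2 (-0.87 ± 0.14, edgeR, adjusted p = 0.0025), while TOC1 had -0.60 ± 0.17 (edgeR, adjusted p = 0.053).

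**Figure D5:**
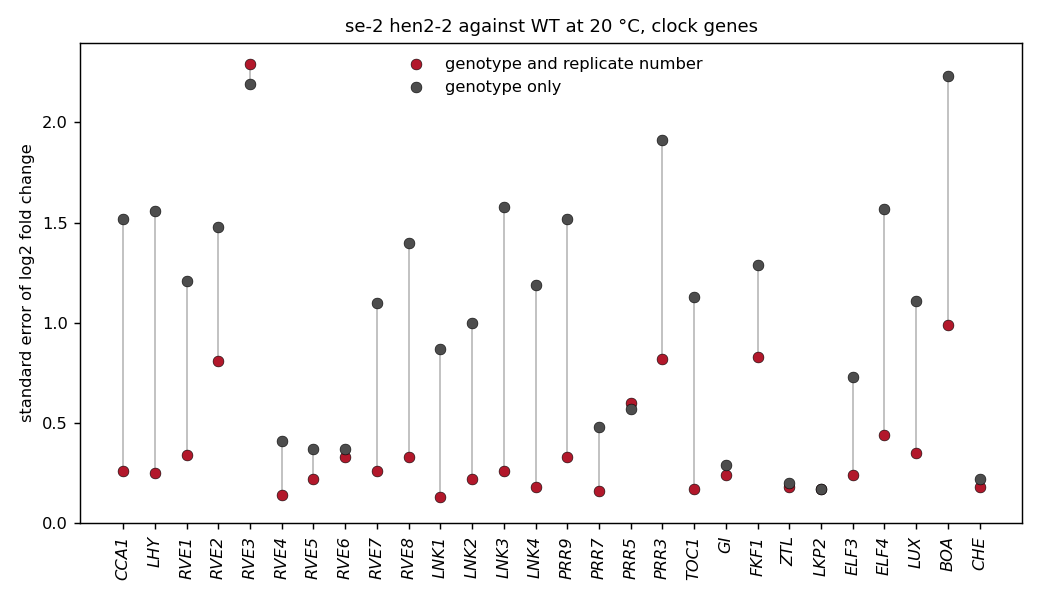
Standard error of the log2 difference between se-2 hen2-2 and WT at 20 °C for each of the 28 clock genes, with genotype and replicate number in the model (red) and with genotype only (grey). Lines join the values of a gene. LHY had 0.25 with the replicate number and 1.56 without it, and TOC1 had 0.17 and 1.13.

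In that fit 9 of 19 light-harvesting genes were called in se-2 hen2-2, 8 of them lower, against 1 with genotype alone. For chlorophyll synthesis the counts were 7 of 12, all lower, against 2, and for starch 11 of 26, 9 of them higher, against 3. For flavonoid genes they were 8 of 11, all higher, against 6. In hen2-2 the block called 1 light-harvesting gene, 1 chlorophyll gene and 1 nitrate gene and no gene of the clock, starch, cold or touch lists.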

How the data were processed

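RNA-seq was analysed for 12 libraries at 20 °C and 6 at 22 °C, and the small RNA samples were not analysed here. Per the submitters' processing notes the authors used Trimmomatic, HISAT2, StringTie, Salmon, SAMtools and Bowtie with the TAIR10 build, and versions are not given in the sources used here. The deposited 20 °C values are gene counts that the authors derived from StringTie coverage with prepDE, not normalized (32832 genes). The deposited 22 °C values are estimated counts made by the authors with Salmon for 55524 transcript entries, with TPM beside them, and the estimated counts were summed to 34262 genes and rounded to whole numbers here. 2 entries without a gene were left out, and 0 sample columns were unused.

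edgeR 4.0.16 (R 4.3.3, limma 3.58.1) with TMM scaling and quasi-likelihood tests was fitted over all genes, with Benjamini-Hochberg adjustment at 0.05 and a filter of 10 counts in the median library in at least 3 libraries. Contrasts were replicate 1 against 2 and 3 with genotype in the model, replicate 2 against 3, their interaction with genotype, mutants against WT, and at 22 °C the replicate number with genotype in the model. Scripts were tested on simulated data. DESeq2 1.42.0, other scaling, no filter, nuclear genes only, counts thinned to the smallest library and leaving out libraries were alternatives. Figures were drawn with matplotlib 3.10.9.

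The genes and lists were chosen with earlier results of these data known. Named genes are all clock genes tested, the 8 largest differences in each direction (mean of at least 1 CPM, separated groups), the 2 largest of each other list, HEN2 and SE. Other list genes are examples chosen after their values were seen. Libraries of 1 number deviated together from their genotype means (correlations with WT from 0.101 to 0.702 at 20 °C and 0.495 to 0.771 at 22 °C). Deviations within a genotype cancel out, so a shift of 1 replicate number alone also makes the 2 others deviate together. The replicate number was taken as pairing the libraries, and pairing beyond such a shift was not tested.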

Additional observations from a re-analysis of the deposited data

Results flagged for a closer look

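Of 185 groups of libraries checked for a single value far from the rest, 15 held one (8.11%). Chance gives about 1 in 20 where the libraries of a group are alike and values are normally distributed. CPM were checked without a log scale, and each value flagged was the highest of its group, so that rate may not hold here. These groups mixed genotypes, so a difference between genotypes can also set 1 library apart. In replicate 1 at 20 °C, 4 such values belonged to se-2 hen2-2. They were LDOX at 67.3 CPM (0.0793 to 0.772 CPM in the other 3), TT8 at 2.67 CPM (0 in the others), GBSS1 at 13.7 CPM (1.52 to 2.92 CPM) and RVE3 at 0.0804 CPM (0 in the others). With the replicate block, LDOX, TT8 and GBSS1 were also called higher in se-2 hen2-2 against WT. Their log2 differences were 6.65 ± 0.91, 7.83 ± 1.44 and 2.17 ± 0.36 (edgeR, adjusted p = 0.0011, 0.0063 and 0.0034). RVE3 was not called, and with genotype alone only LDOX was. In replicate 1 of se-2, COR27 had 18.7 CPM (15 to 15.5 CPM in the others) and ELIP2 had 1.93 CPM (0 to 0.149 CPM).

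In replicates 2 and 3 at 20 °C, WT replicate 2 stood apart for FKF1 at 5.76 CPM (0 to 1.92 CPM in the other 7) and DIN2 at 0.228 CPM (0 in the others). WT replicate 3 stood apart for RVE8 at 4.54 CPM (2.48 to 3.42 CPM) and HSP90.1 at 1.61 CPM (0.403 to 0.842 CPM). Replicate 2 of se-2 stood apart for NYC1 at 31.1 CPM (17.1 to 22.7 CPM) and JAZ10 at 2.03 CPM (0 to 0.605 CPM). In se-2 hen2-2, replicate 2 stood apart for ELF4 at 1.45 CPM (0.17 to 0.675 CPM), and replicate 3 for AT2G23910 at 0.584 CPM (0 to 0.214 CPM) and XTH15 at 0.584 CPM (0 to 0.0911 CPM).

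The replicate 1 difference itself differed between genotypes for 4 genes by the interaction test. The edgeR adjusted p was 0.0016 for SEC15B, 0.0078 for AIR12, 0.031 for AT1G15890 and 0.031 for RALF23.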

How the results depend on the processing

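The count for replicate 1 at 20 °C stayed within 1.5 times under every alternative run, from 2326 to 3449 genes when 1 library was left out, and no named gene or list median turned its direction where it had been called. Between replicates 2 and 3 at 20 °C, DESeq2 called 153 genes and no filter gave 2, with 0 to 4 when a library was left out. For the interaction these were 65, 179 and 2 to 9. With DESeq2, the replicate block and a replicate 1 term, hen2-2 against WT gave 261, 179 and 169 genes (29, 55 and 50 of the 3426), se-2 gave 341, 397 and 349 (34, 172 and 143) and se-2 hen2-2 gave 1204, 1564 and 1481 (150, 590 and 547). Leaving out a library gave 23 to 61, 16 to 71 and 159 to 460 genes, of which 2 to 9, 2 to 8 and 23 to 82 were among the 3426. At 22 °C, replicate 2 against 1 gave 115 genes with DESeq2, 51 without the filter and 0 to 1231 without a library. The replicate test gave 1649 to 5799 genes, replicate 3 against the others 2996 to 5986, and the 3426 held 827 to 2003 calls. By direction these were 208 to 601 (higher, then lower), 236 to 743 (higher in both), 331 to 776 (lower, then higher) and 52 to 206 (lower in both). List medians moved by more than the spread between genotypes in 8 cases. In the depth-matched libraries at 20 °C the morning median was -3.12 and the evening median 1.45. The morning median was -3.01 without all se-2 libraries and between these values without se-2 replicate 1 or 3, and at 22 °C it was 1.58 without WT replicate 3. The touch and wounding median at 20 °C was 1.92 without WT replicate 2 and 2.26 against replicate 3 only. RVE5, ELIP2, JAZ10, DREB2A, LDOX and LBD37 lost selection under some alternatives, and XTH15 gained it. The cause was not tested. Depth limits low genes: 3 counts stand for 0.02 to 0.064 CPM.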

Other observations

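Apart from the replicate difference, 11 genes were at 0 in exactly 1 of the 12 libraries at 20 °C while the other 11 libraries each held at least 1 CPM, and none of them was among the 3426. They were AT1G15890, SEC15B and AT4G39570 in hen2-2 replicate 1, AT1G16170, AT4G09200 and AT4G20720 in WT replicate 3, emb1513, NGA1 and PRA8 in replicates 3, 1 and 2 of se-2 hen2-2, AT3G14067 in WT replicate 2 and ABCG42 in se-2 replicate 2. AT1G15890 and SEC15B are also among the 4 genes of the interaction test.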
